A study of Arabidopsis thaliana with 32 samples.

Results

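On a cDNA array with 10816 features, 125 features had a mean log2 ratio above -0.2 early and a negative mean log2 ratio late. Early and late refer to the hours after activation of a LEAFY fusion protein. The ratio was read as dexamethasone over control, a direction that no label settles. These 125 features were chosen by their measured ratios, out of 10475 features with enough values. E is the mean log2 ratio of the 12 arrays at 2, 4 and 6 h, and L is the mean of the 12 arrays at 10, 12 and 22 h. A feature was taken where L was at or below -0.35, E was above -0.2, E lay at least 0.25 above L, and 9 or more late values were negative, with at least 10 values in E and in L. The values at these 6 time points therefore define the features and are given as a description, with no test. The arrays at 0 h and 8 h had no part in the choice, and their ratios are the ones tested. The error of those tests was estimated over all 32 arrays, so it draws also on the 24 arrays that the rule used. With only the 4 arrays at 8 h, limma called 0 members and 0 of all features at that time. An unadjusted p under 0.05 was found for 4 members on the negative side and 2 on the positive side. Of all features, 1025 had one, 429 of them on the negative side.

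LEAFY (LFY) is a plant transcription factor that specifies floral meristem identity and directly activates floral homeotic and meristem identity genes. In LFY-GR it is joined to the hormone-binding region of the glucocorticoid receptor, which keeps the protein out of the nucleus until a steroid such as dexamethasone is added. A change that appears only hours later can follow from the products of earlier targets as well as from the factor itself, and a time course of treated against mock-treated tissue separates early from late responses.

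Each of the 32 two-colour arrays compared dexamethasone-treated with control-treated callus of Arabidopsis thaliana carrying 35S:LFY-GR, with 4 arrays at each of 0, 2, 4, 6, 8, 10, 12 and 22 h of treatment. Both channels of every array came from tissue with the transgene, which the 35S promoter drives in most tissues, and the callus derived from root explants. Treated RNA was in channel 2 on replicates 1 and 3 and in channel 1 on replicates 2 and 4. It is unstated if the 4 arrays of a time point held 4 pairs of RNA samples or dye swaps of 2 pairs, so the p-values measure a spread between arrays that may be technical. In bulk tissue, fewer cells of a type and less RNA per cell cannot be told apart.

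The features bear plate positions as identifiers, 0 of the 10816 were found in the TAIR10.1 gene table, and the files do not pair them with genes or sequences. The 2 members with the lowest L are named by identifier, and others are given by their place in the order of L. Several features may be clones of 1 transcript, so features are not genes. No gene list or cell type marker could be checked, and the targeted gene could not be read.

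Which sign means lower is unsettled: the numerator of the deposited ratio is named in no label or header read here. Negative means lower in dexamethasone-treated tissue if the ratio was channel 2 over channel 1, which is the usual convention only. Between 2 and 22 h the mean correlation across features, before arrays were turned, was 0.12 to 0.37 for arrays of the same orientation and -0.31 to -0.03 for arrays of opposite orientation. Replicates 2 and 4 therefore had their signs turned, also at 0 h. At 0 h the mean correlation was 0.15 for the same orientation and 0.14 for the opposite one, so the sign change was not seen there. One pair of arrays of the same orientation, replicate 1 at 0 h and replicate 1 at 2 h, correlated at -0.37 over the 10475 features. With all signs exchanged, the same rule took 96 other features in place of the 125, and every "lower" below becomes "higher". With early and late exchanged, the rule took 46.

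Most of the late ratios were small. L ran from -0.84 to -0.35 with a median of -0.42, and 114 of the 125 members lay above -0.5. E ran from -0.20 to 0.54 with a median of -0.08. Just inside the late threshold a member had an L of -0.3505, and just outside a feature had -0.3491. In all, 135 features failed on L alone, 26 on E alone, 36 on the distance between E and L, and 38 on the number of negative values. The late values were negative on all 12 arrays in 16 members, on 11 arrays in 41, on 10 in 34 and on 9 in 34.

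The late time with the lowest mean was not the same in all members. The rule used these means, and whether they differ beyond the spread between arrays was not tested. Among the 3 late means, the lowest was that of 22 h in 85 members, that of 10 h in 27 and that of 12 h in 13. At 22 h the means ran from -1.26 to 0.42 with a median of -0.56, and 116 members were at or below -0.35. At 10 h the range was -1.37 to -0.10 with a median of -0.37, and 74 members were at or below -0.35. At 12 h it was -1.05 to 0.06 with a median of -0.33, and 56 members were. On replicates 3 and 4 the member medians averaged -0.17, -0.23 and -0.19 at 10, 12 and 22 h. On the other replicates they averaged -0.48, -0.44 and -0.95, so the low value at 22 h came from those.

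The late values were unequal between replicates. The median of the members on replicates 1, 2, 3 and 4 was -1.06, -0.84, -0.32 and -0.07 at 22 h. It was -0.58, -0.30, -0.22 and -0.23 at 12 h, and -0.30, -0.67, -0.30 and -0.03 at 10 h. At 22 h replicates 1 and 2 lay apart from replicates 3 and 4, while at 10 h replicates 1 and 3 had like medians. Averaged over the late arrays of each pair, the median member stood at -0.66 on replicates 1 and 2 and at -0.22 on replicates 3 and 4. The medians of all 10475 features on those arrays were both -0.01. On replicates 1 and 2, 119 members had a late mean at or below -0.35, and on replicates 3 and 4, 31 did. The late mean was lower on replicates 1 and 2 than on 3 and 4 in 113 members (90.4%), against 50.3% of all features. It was so in 65.5% of the 119 features low both early and late that are described below. The features taken with all signs exchanged also lay further from 0 on replicates 1 and 2. Their array medians averaged 0.81 there and 0.56 on replicates 3 and 4 at 22 h. The averages were 0.50 and 0.30 at 12 h, and 0.51 and 0.25 at 10 h.

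**Figure D1:**
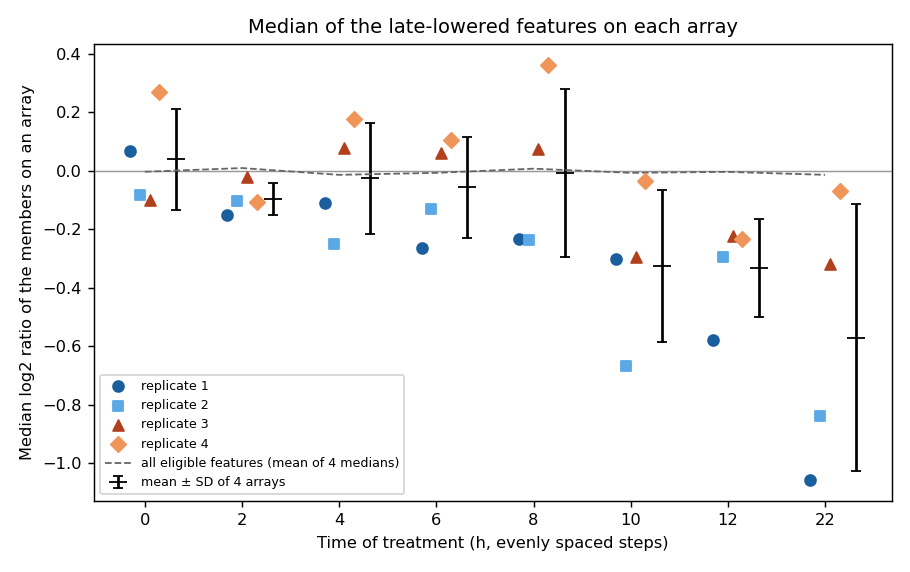
Median log2 ratio of the 125 members on each of the 32 arrays, by time of treatment in hours, with the mean and SD of 4 arrays and, as a dashed line, the mean of the 4 medians of all 10475 features. Replicates 1 and 2 lie lowest at 22 h, at -1.06 and -0.84, while replicates 3 and 4 stand at -0.32 and -0.07.

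Values at the upper limit of the deposited scale were also uneven. Of the 32 arrays, 10 had 112 to 476 features at that limit and the other arrays had at most 62, and 9 of the 10 were replicates 1 or 2. They included 5 of the 6 late arrays of replicates 1 and 2 and 0 late arrays of replicates 3 and 4. Limit values were set missing, and 7 members had any. The late array of replicates 1 and 2 with few limit values was replicate 2 at 22 h, with 2 of them, and it gave a member median of -0.84. Without the 10 arrays, and with the minimum counts scaled to the arrays left, the rule took 80 features, of which 37 were among the 125. Whether the limit values bear on the late ratios was not tested beyond these counts.

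The early arrays were divided in a like way at 4 and 6 h. On replicates 1, 2, 3 and 4 the member median was -0.15, -0.10, -0.02 and -0.11 at 2 h, -0.11, -0.25, 0.08 and 0.18 at 4 h, and -0.27, -0.13, 0.06 and 0.11 at 6 h. All 4 arrays lay below 0 at 2 h. At 4 and 6 h replicates 1 and 2 lay below 0 and replicates 3 and 4 above it, so the means over 4 arrays were -0.03 ± 0.19 and -0.06 ± 0.17 (SD, n = 4). At 2, 4 and 6 h, 12, 0 and 2 members had a mean at or below -0.35. A mean below 0 was found in 71.2%, 61.6% and 62.4% of the members, against 48.1%, 54.5% and 52.1% of all eligible features. The label "lowered only late" therefore fits the mean over arrays that the rule used, and not every replicate or every early time.

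At 0 h, before any treatment time had passed, the member median was 0.07, -0.08, -0.10 and 0.27 on replicates 1 to 4, with a mean of 0.04 ± 0.17 (SD, n = 4). The 4 arrays fell on both sides of 0. The mean 0 h ratio was below 0 in 38 of 124 members (30.6%), against 50.1% of all eligible features. In limma, 124 members passed the requirement of a value per orientation at every time point and were tested. At 0 h the test called 0 of them and 0 of all 10567 features tested (0%), with 1 member and 293 features (2.77%) at an unadjusted p under 0.05.

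At 8 h, which lies between the early and late arrays and was not used by the rule, the members as a group did not stand away from 0. Their array medians were -0.23, -0.24, 0.07 and 0.36, with a mean of -0.01 ± 0.29 (SD, n = 4). Again replicates 1 and 2 lay below 0 and replicates 3 and 4 above it, and the SD was larger than the mean. Of the members with a value, 83.2% and 82.9% were below 0 on replicates 1 and 2, against 34.7% and 22.4% on replicates 3 and 4. All eligible features were below 0 at rates of 47.5% to 51.0% on these 4 arrays. Over the 4 arrays, the mean 8 h ratio was below 0 in 68 of the 125 members (54.4%), against 49.6% of all eligible features. In 7 members it was at or below -0.35, and the share of all features that far down was not counted.

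The fit called 2 of the 124 members tested at 8 h, both on the negative side, where it called 90 of all 10567 features (0.852%). On the positive side it called 0 members, with 0 at an unadjusted p under 0.05 against 7.86% of all features, and it called 249 features (2.36%). In either direction, 339 features (3.21%) were called, and 14.6% of all features had an unadjusted p under 0.05. The 7 members with such a p (5.65%) were all on the negative side, where 6.70% of all features had one. The median 8 h ratio was -0.01 in the members and 0.00 in all features. The SE of a member's 8 h ratio ran from 0.087 to 0.69 with a median of 0.20.

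Of the 2 members called at 8 h, the one at place 6 in the order of L had ratios of -1.04, -1.05, -2.94 and -2.23 on replicates 1 to 4. All 4 arrays were below 0, with a mean of -1.82 (SE 0.42, limma adjusted p = 0.0107). Its means at 10, 12 and 22 h were -0.52, 0.06 and -1.26. The last rested on replicate 2 at -3.48, while the other 3 arrays lay between -0.75 and -0.18, so its lowest time was 8 h. The member at place 50 had ratios of -0.31, -0.68, -0.14 and -1.01 at 8 h, with a mean of -0.53 (SE 0.15, limma adjusted p = 0.0400). Its late means of -0.27, -0.41 and -0.62 at 10, 12 and 22 h lay on the same side of 0. Both were picked out after their values were seen. Without replicate 3 or without replicate 4 the fit called 0 members at 8 h, and without replicate 1 or without replicate 2 it called 1.

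The change from 0 h to 8 h gave no called member. Limma called 85 of 10567 features for 8 h minus 0 h (0.804%), 14 on the negative side (0.132%) and 71 on the positive side (0.672%). It called 0 members on either side, with 4 at an unadjusted p under 0.05, all on the negative side. That is 3.23% of the members tested, near the 3.05% of all features on that side. The lowest adjusted p of a member was 0.154. The median difference was -0.08 in the members and 0.00 in all features, and 86 of the 124 were below 0. At 0 h the mean ratio was below 0 in 30.6% of the members, against 50.1% of all eligible features. At 8 h it was below 0 in 54.4%, against 49.6%. By these shares, which count members that share arrays, the members lay further from all features at 0 h than at 8 h. The single arrays at 0 h did not go the same way. On replicates 1 to 4, 36.3%, 73.4%, 62.1% and 17.7% of the members were below 0, against 46.2%, 58.0%, 48.7% and 52.0% of all eligible features. The lack of called members does not show that the members had the same ratio at both times.

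The choice was repeated on 3 replicates and the features taken were read on the replicate left out, with at least 8 of 9 values and 7 of 9 negative. This gives late ratios on arrays that had no part in choosing the features, unless the arrays of a pair are dye swaps of the same RNA. Chosen without replicate 1, 84 features had a median L of -0.40 on it, and chosen without replicate 2, 104 features had -0.30 on it. Chosen without replicate 3, 152 features stood at -0.10 on it, and chosen without replicate 4, 200 features stood at 0.08 on it. On replicates 1 and 2 a late mean below 0 was read for 77.4% and 80.8% of the features, where all features gave 49.2% and 54.1%. On replicates 3 and 4 it was read for 63.2% and 40.0%, where all features gave 47.7% and 54.9%. Over the 4 replicates left out, the median L was -0.18 ± 0.21 (SD, n = 4), and the SD was larger than the mean.

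**Figure D2:**
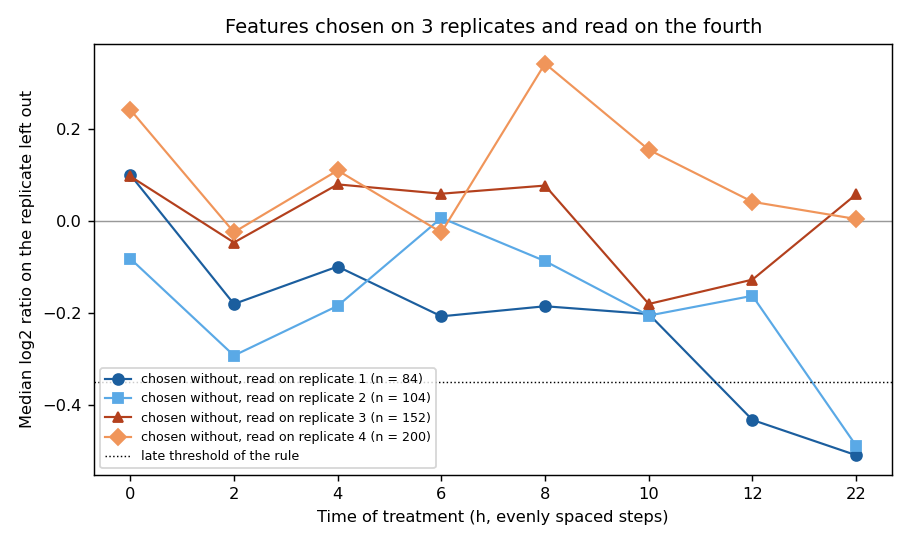
Features chosen by the rule on 3 replicates, read on the fourth; each line is the median log2 ratio on the replicate left out, by time of treatment in hours, and the dotted line is the late threshold of -0.35. At 22 h the medians were -0.51 and -0.49 on replicates 1 and 2, and 0.06 and 0.00 on replicates 3 and 4.

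At 22 h the medians read on replicates 1, 2, 3 and 4 were -0.51, -0.49, 0.06 and 0.00. The low ratio at 22 h was thus read back on replicates 1 and 2 and not on replicates 3 and 4. At 10 h the medians were -0.20, -0.21, -0.18 and 0.15, so 3 of the 4 replicates read back a value below 0. At 12 h they were -0.43, -0.16, -0.13 and 0.04. The median E read on replicates 1, 2, 3 and 4 was -0.19, -0.17, 0.02 and 0.05. On replicates 1 and 2 the median E thus also lay below 0, near the limit of -0.2 that the rule put on E. A low level was read back there more clearly than a change from early to late. The lists themselves moved as well. Without replicates 1, 2, 3 and 4, the features shared with the 125 numbered 48, 58, 86 and 87, which is 38.4%, 46.4%, 68.8% and 69.6% of the 125 and 57.1%, 55.8%, 56.6% and 43.5% of the list chosen.

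The 2 members with the lowest L, GP077F7 and GP008D8, had late ratios past -0.35 on several arrays, further on replicates 1 and 2. Their late means were -1.31 and -1.17 on replicates 1 and 2, and -0.37 and -0.34 on replicates 3 and 4. GP077F7 had an L of -0.84, with ratios on replicates 1 to 4 of -0.71, -1.58, -0.94 and 0.16 at 10 h. At 12 h they were -1.27, -0.77, -0.58 and -0.11, and at 22 h -2.05, -1.45, -0.39 and -0.34. All of its late values but replicate 4 at 10 h were below 0, and at 22 h replicates 1 and 2 lay below replicates 3 and 4. Its ratios were -0.33, -0.03, -0.24 and 0.83 at 0 h. At 8 h they were -0.42, -0.74, -0.48 and 0.53, with a mean of -0.28 (SE 0.25, limma adjusted p = 0.695). At 8 h 3 of 4 arrays lay below 0, and the mean did not pass the threshold. Its means at 2, 4 and 6 h were 0.12 ± 0.40, -0.29 ± 0.42 and -0.38 ± 0.18 (SD, n = 4).

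GP008D8 had an L of -0.75 and was below 0 on all 12 late arrays. Its ratios on replicates 1 to 4 were -0.70, -1.51, -0.41 and -0.07 at 10 h, -1.22, -0.62, -0.32 and -0.48 at 12 h, and -1.47, -1.47, -0.32 and -0.44 at 22 h. At 22 h the pairs did not overlap. At 0 h it stood at -0.15, -0.09, -0.0020 and 0.39, and at 8 h at -0.78, -0.87, -0.29 and 0.24, with a mean of -0.42 (SE 0.20, limma adjusted p = 0.338). Its means at 2, 4, 6 and 8 h were -0.05, -0.16, -0.37 and -0.42, ahead of -0.67, -0.66 and -0.92 at 10, 12 and 22 h. Both named features thus had lower means at 6 h than at 2 h, inside the limit that the rule put on E.

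Several members next in the order of L had single arrays far from the rest. The member at place 3 had an E of 0.54 and an L of -0.71, and its arrays ran from 4.08 (replicate 1 at 6 h) to -5.61 (replicate 2 at 8 h). Its 22 h mean was 0.42 ± 1.31 (SD, n = 3). The member at place 4 had -0.28, -0.02 and -2.30 on replicates 1 to 3 at 10 h, and 3.53 on replicate 3 at 4 h. For the member at place 5, replicate 2 at 10 h stood at -2.91 and replicate 3 at 12 h at -1.90, while its 22 h values lay between -0.46 and -0.06. The member at place 8 had -3.74 on replicate 3 at 10 h and a 22 h mean of -0.16. In contrast, the member at place 7 was below 0 on all 12 late arrays, with -1.25, -1.26, -0.35 and -0.04 at 22 h.

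**Figure D3:**
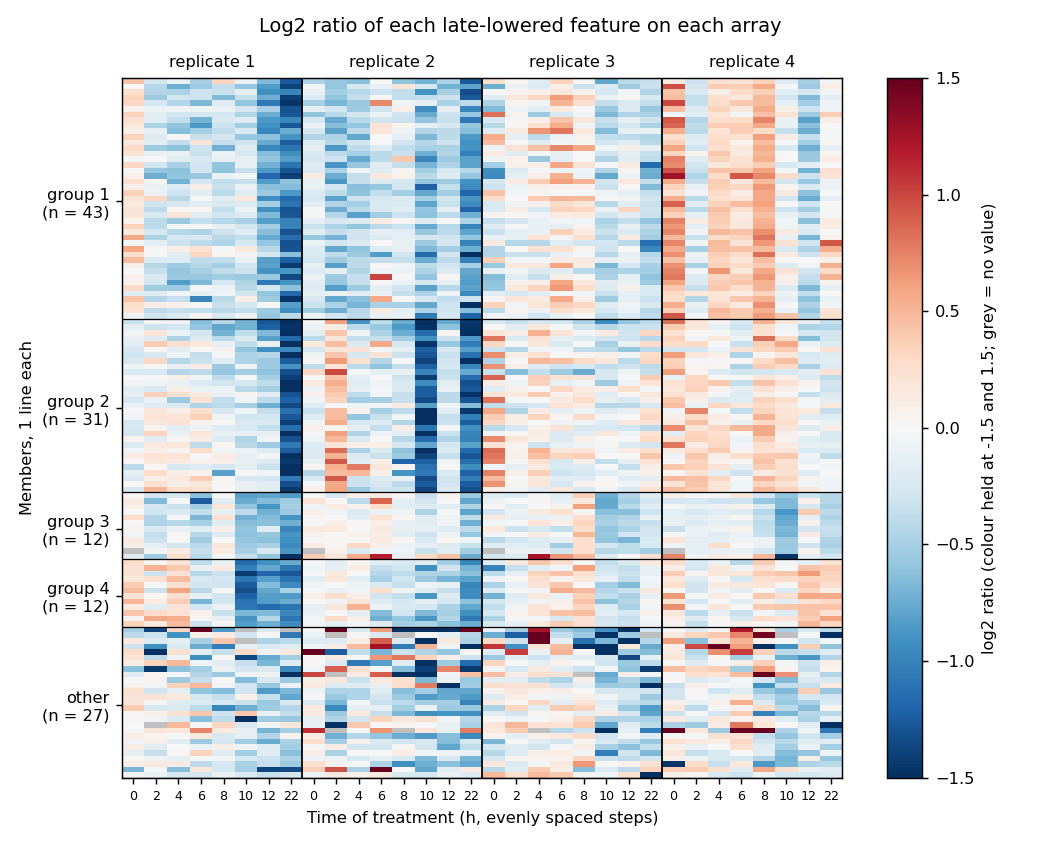
Log2 ratio of each of the 125 members (1 line each) on each array, with arrays in blocks by replicate and by hours of treatment within a block, and members ordered by groups of like profile; the colour is held at -1.5 and 1.5, and grey marks a missing value. The late columns are darkest in replicates 1 and 2.

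The members fell into groups with partly like profiles. They were grouped by correlation over the 24 arrays that the rule used (average linkage, distance 0.4), after the likeness had been seen, and 98 of the 125 fell into 4 groups of 43, 31, 12 and 12 members. On the 8 arrays at 0 h and 8 h, which neither the rule nor the grouping used, the mean correlation between pairs was 0.71, 0.50, 0.53 and 0.75 within groups 1 to 4, where group 3 had 11 members with all 8 values. It was 0.26 over the 121 members with all 8 values and 0.0037 over the 10078 features with all 8. The 96 features of the mirrored rule gave 0.27 (n = 92 with all values), those low both early and late 0.35 (n = 116), and those of the rule with early and late exchanged 0.41 (n = 43). Likeness among the members was thus no higher than in other sets chosen by their ratios. Points of a pair share arrays, dye orientation and possibly the transcript. These correlations are a description.

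Group 1 (43 members) had medians of -1.14, -0.86, -0.39 and 0.02 on replicates 1 to 4 at 22 h, and its medians at 12 h were -0.71, -0.33, -0.14 and -0.49. At 2 h it stood at -0.26, -0.53, -0.02 and -0.21, so all 4 early medians at that time were below 0. At 0 h the 4 arrays gave 0.20, -0.20, -0.20 and 0.56, and at 8 h -0.33, -0.17, 0.07 and 0.53. On replicate 4 the group lay above 0 at 0, 4, 6, 8 and 22 h.

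Group 2 (31 members), which held both named features, was lowest on replicates 1 and 2 at 22 h (-1.35 and -1.14) and on replicate 2 at 10 h (-1.26). Replicates 3 and 4 stood at 0.17 and -0.19 at 22 h. At 2 h its medians were 0.09, 0.47, 0.02 and 0.25, above 0 on all 4 arrays, the reverse of group 1. The median late mean of its members was -0.78 on replicates 1 and 2 and -0.02 on replicates 3 and 4. The 2 h and late arrays served to form the groups, so differences between groups at those times are partly built in.

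Group 3 (12 members) had like median late means on both replicate pairs, -0.47 on replicates 1 and 2 and -0.41 on replicates 3 and 4. At 10 h its medians were -0.59, -0.21, -0.58 and -0.67, and at 22 h -0.88, -0.54, -0.27 and -0.42, all below 0. At 12 h its medians were -0.62, -0.06, -0.43 and -0.07, so they were near 0 on replicates 2 and 4, the arrays with treated RNA in channel 1. At 22 h replicates 1 and 2 still lay below replicates 3 and 4. At 0 h they were 0.04, 0.06, -0.08 and -0.05, on both sides of 0, and at 8 h -0.02, -0.10, 0.27 and -0.31. Group 4 (12 members) had medians of -1.10, -0.46, -0.29 and 0.02 at 10 h and -0.96, -0.86, -0.04 and 0.32 at 22 h. Its median late mean was -0.77 on replicates 1 and 2 and 0.02 on replicates 3 and 4.

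**Figure D4:**
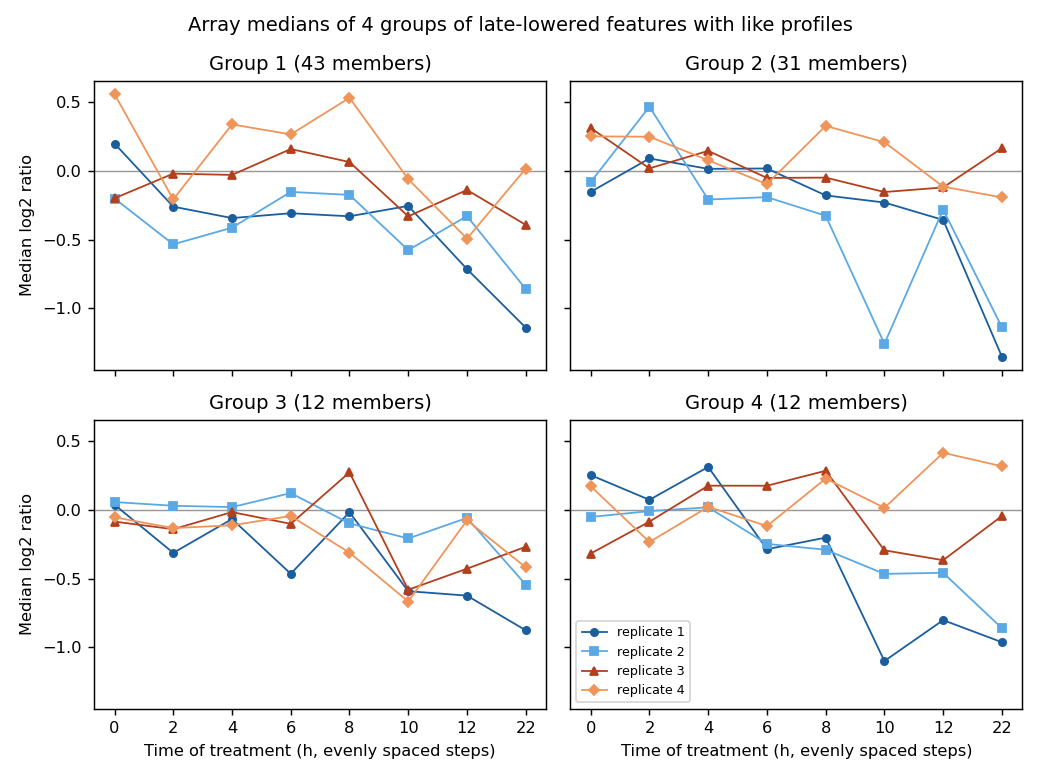
Median log2 ratio of the 4 groups of members with like profiles (43, 31, 12 and 12 members), by time of treatment in hours, with 1 line per replicate. In groups 1, 2 and 4 replicates 1 and 2 lie well below replicates 3 and 4 at 22 h, while in group 3 all 4 lie between -0.88 and -0.27.

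The members were unevenly spread over the plates, which the rule did not use. Plates 60 to 119 held 105 of the 125 members (84.0%) and 52.8% of the 10475 eligible features. Plates 0 to 59 held 14 members (11.2%) and 22.2% of the eligible features, and plates 120 to 147 held 6 (4.8%) and 24.97%. The 96 features of the mirrored rule were spread in other shares, with 49.0% on plates 60 to 119, 41.7% on plates 0 to 59 and 9.38% on plates 120 to 147. The plate ranges were chosen after the spread was seen. No single plate made the excess, since members came from 68 of the 114 plates with at most 5 on a plate. The files do not say what clones the plates held.

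**Figure D5:**
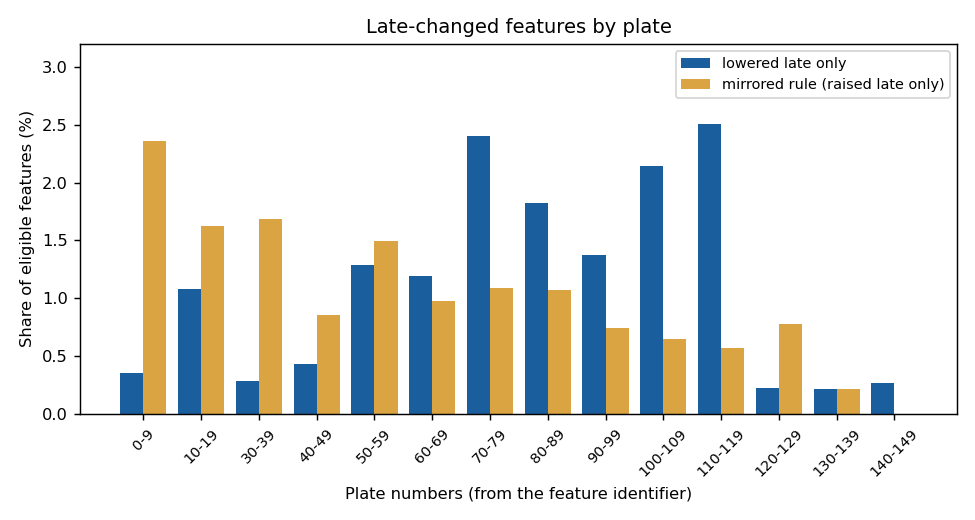
Share of eligible features (%) taken by the rule and by the mirrored rule, in steps of 10 plate numbers read from the identifiers. From plate 60 to 119 the rule took 1.19% to 2.51% of eligible features, against 0.210% to 0.262% from plate 120 on; below plate 60 the steps ran from 0.280% to 1.28%, so there is no sharp edge at plate 60.

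On the 12 late arrays the median of all eligible features on plates 60 to 119 ran from -0.14 to 0.09 with a mean of -0.02. On plates 120 to 147 it ran from -0.11 to 0.20 with a mean of -0.02, and on plates 0 to 59 from -0.06 to 0.15 with a mean of 0.03. With each plate centred on its own median on each array, an alternative added after the data were seen, the rule took 112 features, of which 92 were among the 125. Over the 8 arrays at 0 h and 8 h the mean correlation between features on plates 60 to 119 was 0.039 (n = 5312), against 0.26 for the members.

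For comparison, 119 features were low both early and late, with E and L at or below -0.35 and 9 or more negative late values. At 8 h, a time that neither choice used, these features had array medians with a mean of -0.54 ± 0.10 (SD, n = 4), between -0.63 and -0.39, against -0.01 ± 0.29 for the late-lowered members, between -0.24 and 0.36. The 2 ranges did not overlap, so the highest array of the one lay below the lowest of the other. At 0 h the features low at both times stood at -0.06 ± 0.08. Their late mean was also closer between pairs, with a median of -0.54 on replicates 1 and 2 and -0.43 on replicates 3 and 4. A late mean at or below -0.35 on replicates 3 and 4 was found for 68.1% of them and for 24.8% of the late-lowered members. Plates 60 to 119 held 40.3% of them, against 84.0% of the late-lowered members. These sets were chosen by their ratios, so the differences are described and not tested.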

How the data were processed

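Per the labels, the authors analysed the arrays in Rosetta Resolver. Each deposited value was a log10 ratio of a feature on an array, held to an absolute limit of 2, and the scale was read from the values. Background correction, normalization, numerator and dye assignment were not given in the sources used here, and no signal intensities were used. Arrays had values for 10646 to 10809 features, and their number limits the precision.

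The deposited log10 ratios were multiplied by 3.3219 to log2, replicates 2 and 4 were turned, and limit values (0.982% of all) were set missing. A linear model with 1 coefficient per time point and 1 dye term was fitted to the 32 arrays by lmFit and eBayes of limma 3.58.1 under R 4.3.3 (23 residual degrees of freedom), for features with a value per orientation at each time point. P-values were two-sided and adjusted by Benjamini-Hochberg over 10567 features, with a threshold of 0.05. Simulated data served to test the fit. The members and lists were chosen with earlier results of these data known. The 2 members with the lowest L were to be named.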

Additional observations from a re-analysis of the deposited data

How the results depend on the processing

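The number of members, 125, moved to 11 with an L threshold of -0.5 and to 80 without the arrays with over 100 upper-limit values. Leaving out 1 replicate gave 84 (without replicate 1) to 200 (without replicate 4). With arrays scaled it was 84 (83 shared with the 125), and with limit values kept 136 (120 shared). The cause of the changes given in these paragraphs was not tested. The members' median at 8 h stayed between -0.13 and 0.07 over the alternatives, within its SD. The 2 members called at 8 h became 1 with no dye term and without the arrays with over 100 upper-limit values. They became 0 at a threshold of 0.01 (7 unadjusted) and with only the arrays of the time points tested, where limma had 4 arrays. There, 4 members on the negative side and 2 on the positive side had an unadjusted p under 0.05. With 1 replicate left out the count ran from 0 to 1. The replicate block gave 3. For 8 h minus 0 h and for 0 h, 0 members were called under every alternative run. GP077F7 and GP008D8 stayed past no threshold at 0 h or 8 h, with a lowest adjusted p of 0.0875 (GP008D8 at 8 h).

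Over all features, the 339 called at 8 h (90 negative) became 590 (198) with the replicate block, 182 (46) with arrays averaged as dye swaps, 196 (45) without the arrays with over 100 upper-limit values, 0 (0, with 1025 unadjusted) with only the arrays of that time point and 178 (30) at 0.01. The 85 called for 8 h minus 0 h (14 negative) became 53 (7) with no dye term, 159 (28) with the replicate block, 22 (2) averaged, 56 with arrays scaled, 30 (7) without those arrays, 26 (2) with only these time points and 30 (3) at 0.01. With arrays scaled, 2 features, both negative, were called at 0 h. With 1 replicate left out, counts ran from 216 (without replicate 2) to 347 at 8 h (47 to 89 negative), from 0 to 1 at 0 h (0 to 1 negative) and from 11 (without replicate 2) to 65 for 8 h minus 0 h (1 to 8 negative). Same-numbered arrays at 0 h and 8 h had residual correlations of 0.04, 0.05, -0.08 and 0.08 for replicates 1 to 4. Over all time points the mean was 0.089 for the same number (112 pairs of arrays, -0.24 to 0.44) and -0.030 for other numbers. No same-numbered pair at 0 h and 8 h was above the 0.1 set for pairing, so the numbers were not taken to pair arrays. Over all time points, same-numbered arrays were slightly more alike on average.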

Other observations

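The dye term of the fit, which is the part of a ratio that follows the channel and not the treatment, was small in the members. It ran from -0.42 to 0.20 with a median size of 0.068 on the log2 scale in the 124 members tested, against 0.084 in all 10567 features. The rule asked for 9 negative late values of 12 over both orientations, so it used values that enter this term, and the sizes are a description.

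Across eligible features, which are not independent replicates and share arrays, the turned ratios of replicates 1 and 2 correlated at 0.11, 0.32 and 0.39 at 10, 12 and 22 h, and those of replicates 3 and 4 at 0.17, 0.37 and 0.29. At 0 h the values were 0.03 and -0.28, and at 8 h 0.23 and -0.04. Within the members, over the narrow range of late ratios that the rule left, they were -0.34, 0.04 and 0.16 for replicates 1 and 2 and 0.25, -0.11 and -0.09 for replicates 3 and 4 at 10, 12 and 22 h.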
